A study of Homo sapiens with 16 samples.

Results

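The collagen chain genes are the genes whose platform symbol has the form COL, a number, A and a number, each coding for 1 alpha chain of a collagen. All 32 such genes of the 11963 genes with a single symbol on the array were taken, with all 73 of their probe sets. By class, 9 are fibrillar chains, 6 are basement membrane chains of type IV collagen, and 17 are other chains. Where a gene had several probe sets, the brightest on average stood for it, and the remaining ones were used to check it. The chains COL24A1, COL27A1, COL6A5, COL6A6, COL12A1, COL20A1, COL22A1, COL17A1, COL23A1 and COL25A1 were not analysed here.

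Collagens are secreted proteins in which 3 alpha chains wind into a triple helix. Fibrillar collagens such as types I, III and V form the load-bearing fibres of connective tissue, type IV collagen forms the sheet of the basement membrane, and the other types link, anchor or coat these structures. In breast tumours most fibrillar collagen is known to come from fibroblasts, while basement membrane chains are made by epithelial, endothelial and stromal cells alike.

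The study measured total RNA of cultured human breast cancer lines with Affymetrix arrays, 2 arrays in each of 8 groups. Invasive lines were MDA-MB-231, a widely used triple-negative line, and LM24175, a derivative of MDA-MB-231 selected for lung metastasis. Both were stably infected with a construct that expresses RECK constitutively or with an empty vector. RECK is a membrane-anchored glycoprotein known to inhibit matrix-degrading proteases. The poorly invasive lines were Hs343T and Hs606T, each transfected with a scrambled siRNA (siSCR) or an siRNA against RECK (siRECK). Every array of an invasive line therefore comes from infected cells and every array of a poorly invasive line from transfected cells. No label gives a time after infection or transfection, or says whether an infected population was a clone or a pool. Whether a group's 2 arrays hold RNA of separate cultures is not labelled, and the p-values below measure only the spread between arrays.

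The deposited values are on a log2 scale, and a difference of 1 is a 2-fold change. Precision is limited by having only 2 arrays a group. A gene was called when limma's moderated test gave a Benjamini-Hochberg adjusted p under 0.05 over all 11963 genes. Every adjusted p below comes from that fit unless its sentence speaks of arrays left out, a fit of some arrays alone or an alternative. It then comes from that repeat of the fit. The files hold no detection calls, so a chain is described as near background where it lay under the lower quartile of all probe sets, 4.47 to 4.68 by array, on both arrays of a group. That is a rank and not a measured background.

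Arrays within a group correlated at 0.994 to 0.998. The first empty-vector array of MDA-MB-231 stood apart from its replicate: 12 of 32 collagens differed by more than 0.5 between them, 10 of these lower on the first array, against 9.04% of all genes. The first construct array of LM24175 was lower than its replicate by more than 0.5 for COL4A5, COL4A6, COL6A2 and COL7A1, against 5.9% of all genes beyond that distance in either direction. In the remaining 6 groups 0 to 3 collagens differed that far. The first arrays of these 2 pairs are called below the arrays that stood apart or deviated. This is a label only, since 2 arrays cannot show which of them is off. RECK itself went against the siRNA labels: it read 6.07 and 5.52 on the siSCR arrays and 11.31 and 11.24 on the siRECK arrays of Hs343T, and 8.74 and 8.65 against 11.17 and 11.02 in Hs606T. These groups are therefore called the arrays labelled siRECK and siSCR, and no direction below is one of RECK loss. Whether the labels were exchanged is not settled here; if they were, every siRNA direction below would turn and the siSCR arrays, taken here as control arms, would be the treated ones. RECK also did not pass the test after the construct, with a difference of 0.03 in MDA-MB-231 and -0.42 in LM24175 (adjusted p = 0.962 and 0.154); the labels do not say whether its probe set can read the construct. Of 10 epithelial markers, 6 or 7 lay above the array median in the invasive lines and 2 to 4 in the poorly invasive lines, and CDH1 read 3.75 to 4.31 on all 16 arrays. All 12 fibroblast markers lay above the median in every group of Hs343T and Hs606T, and 3 of 12 (VIM, FN1 and S100A4) in every group of the invasive lines.

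Promoter sequence is shown for 4 chains that rose in a comparison within a line and that the RefSeq promoter table holds. Capitals mark matches to CCAAT or GGGCGG on either strand. COL4A1 and COL4A2 lie head to head, and the first stretch is the whole interval between their start sites, at chr13:110307158-110307283 on the plus strand of GRCh38.p14. The COL15A1 stretch is the 250 bases before its start, at chr9:98943657-98943906 on the plus strand, and the COL6A3 stretch the 250 bases before its start, at chr2:237414165-237414414 on the minus strand.
COL4A1 and COL4A2: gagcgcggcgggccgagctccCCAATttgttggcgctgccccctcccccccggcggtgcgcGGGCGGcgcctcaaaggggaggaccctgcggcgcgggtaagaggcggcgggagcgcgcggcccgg
COL15A1: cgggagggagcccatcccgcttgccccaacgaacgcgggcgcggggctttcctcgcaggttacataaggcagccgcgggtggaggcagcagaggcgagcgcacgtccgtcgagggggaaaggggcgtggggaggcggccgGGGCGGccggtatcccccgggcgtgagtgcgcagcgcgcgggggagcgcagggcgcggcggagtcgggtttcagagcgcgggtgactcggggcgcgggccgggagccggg
COL6A3: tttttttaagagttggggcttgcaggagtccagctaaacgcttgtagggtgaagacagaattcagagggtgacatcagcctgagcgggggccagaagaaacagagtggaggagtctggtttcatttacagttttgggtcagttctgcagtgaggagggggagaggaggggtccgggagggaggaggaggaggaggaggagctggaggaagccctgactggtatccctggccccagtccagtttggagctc
The shared COL4A1 and COL4A2 interval is 126 bases long with a GC content of 80.2% and holds 1 CCAAT and 1 GGGCGG. COL15A1 has a GC content of 76.8% with 1 GGGCGG, and COL6A3 has 56.0% with no match. TATAAA and TGANTCA, searched in the same way, were in none of the 3 stretches. Over 250 bases before the start, CCAAT was in 32.0% of 35116 promoters, GGGCGG in 42.6%, TATAAA in 10.7% and TGANTCA in 6.6%. Over 126 bases CCAAT was in 21.1% and GGGCGG in 34.6%. Of the 23 collagen genes in the table, 9 had a CCAAT, 16 a GGGCGG, 5 a TATAAA and 1 a TGANTCA within 250 bases. A gene was counted if any of its promoters held the motif, so these counts and the shares of single promoters are unlike measures. COL10A1, which holds the TGANTCA, did not pass the test in any comparison within a line.

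More collagens passed between the poorly invasive and the invasive lines (27 of 32, beside 72.9% of all genes) than between any treatment and its control (at most 5, beside 0.276% to 29.3% of all genes). More of all genes passed between the lines too, and that comparison uses more arrays. The fibrillar chains COL1A1, COL1A2, COL3A1 and COL5A2 were among the brightest features in Hs343T and Hs606T and were dim in MDA-MB-231. Near-background chains numbered 7 to 11 of 32 by group. The cut-off itself places a fixed share of all probe sets of each array under it. The share of all genes there was not counted, by group or for the counts over all 8 groups that follow. COL2A1, the cartilage fibril chain, COL9A3, COL14A1, COL19A1 and COL21A1 were near background in all 8 groups. A further 6 chains, COL4A3, COL4A4, COL4A6, COL9A1, COL9A2 and COL10A1, lay below the array median in every group, and the remaining 21 rose above it in at least 1 group.

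**Figure D1:**
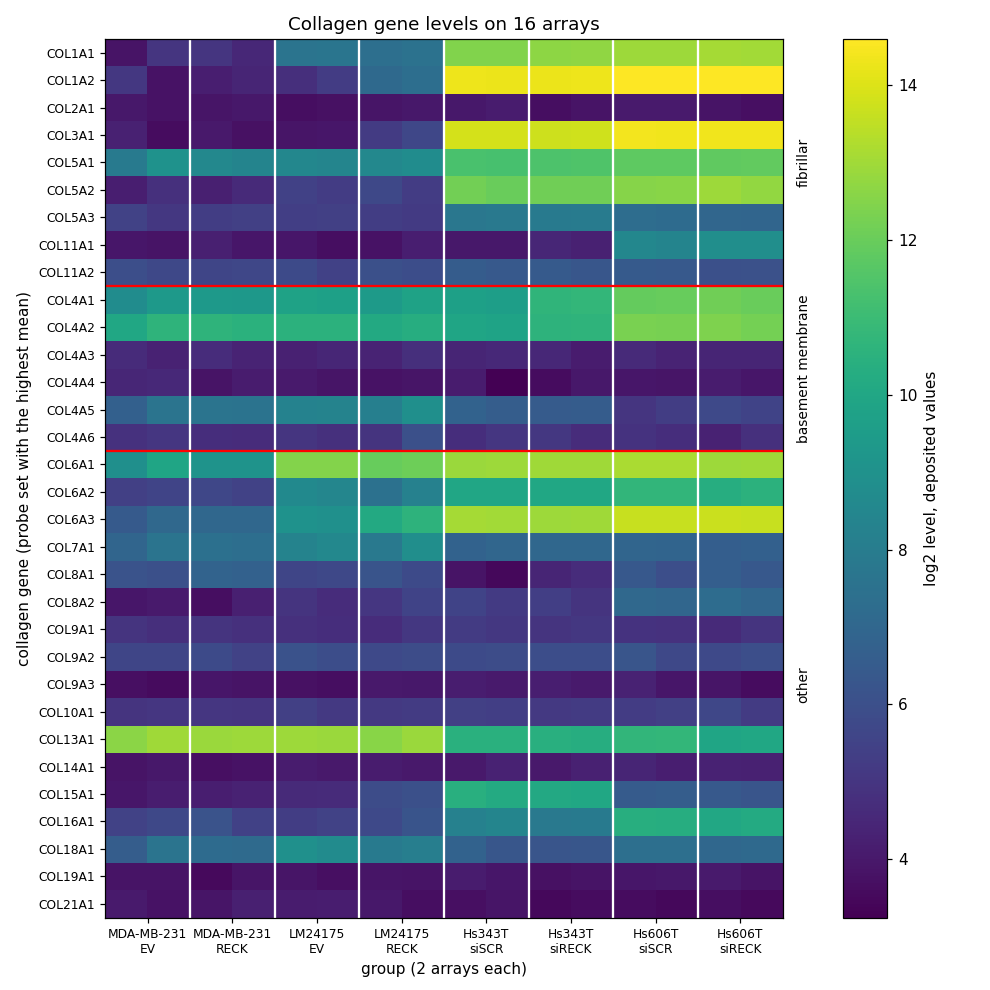
Log2 level of the 32 collagen genes (rows) on the 16 arrays (columns, 2 for each of 8 groups), as deposited, with colour for the level. Colours should be read along a row, since levels of different probe sets are not comparable: COL1A2 runs from 3.81 in MDA-MB-231 to 14.59 in Hs606T, while COL2A1 stays between 3.68 and 4.10.

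In MDA-MB-231 the construct was compared with the empty vector to ask what RECK changes in the parental invasive line. No collagen gene passed the test (0 of 32), where 0.276% of all genes did. At an unadjusted p under 0.05 there were 3 collagens and 1387 genes in all. The smallest adjusted p among collagens was that of COL8A1, a short-chain network collagen of vessel and corneal membranes. It read 6.17 and 6.01 with the empty vector and 6.85 and 6.77 with the construct, so the arrays did not overlap, but the difference of 0.72 did not pass (adjusted p = 0.148, 95% interval 0.32 to 1.11). The median difference over the 32 collagens was 0.06, against 0.01 over all genes.

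That count depends on which empty-vector array is kept, and so does the count over all genes. Without the first empty-vector array COL6A1, a chain of the beaded filaments of type VI collagen, was called lower with the construct (-0.86). Without the second empty-vector array COL1A1, COL4A1, COL4A2, COL5A1 and COL6A3 were called higher by 0.52 to 0.90 and COL1A2 lower (-0.76). Leaving out both arrays that stood apart gave -0.86 for COL6A1 and -0.57 for COL5A1. These rest on the second empty-vector array, which read 9.92 for COL6A1. The first read 8.92 and the construct arrays 9.05 and 9.07. COL5A1, a chain of the type V collagen that starts fibrils, thus took opposite signs with either empty-vector array: it read 7.94 and 9.02 there and 8.52 and 8.38 with the construct.

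In LM24175, the lung-metastatic derivative, 5 of 32 collagens passed the test against 6.7% of all genes. COL1A2, COL3A1, COL6A3 and COL15A1 rose with the construct and COL6A2 fell (3.44% of all genes rose and 3.27% fell). Of the fibrillar chains 2 of 9 rose, of the basement membrane chains none of 6 passed, and of the other chains 2 of 17 rose and 1 fell. The median difference was 0.13 over the collagens and 0.00 over all genes.

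COL1A2, the second chain of type I collagen, read 4.80 and 5.25 with the empty vector and 7.12 and 7.33 with the construct. The construct arrays were both above the empty-vector arrays, and the level moved from below to above the array median. The difference was 2.20 ± 0.29 (SE), a 4.61-fold rise (95% interval 2.97 to 7.15, adjusted p = 0.00106). Its other probe set gave a difference of 3.11, from 3.575 and 3.708 with the empty vector, near background. The size of both differences depends on how the array reads dim signal. COL1A1, the major chain of the same type I molecule, read 7.62 and 7.67 with the empty vector and 7.38 and 7.54 with the construct. It did not pass, with a difference of -0.18 (adjusted p = 0.811, 95% interval -0.77 to 0.40), and none of its 4 probe sets passed. The interval of COL1A1 therefore lies wholly below that of COL1A2 (1.57 to 2.84); a test between the 2 genes was not run.

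COL3A1, the chain of type III collagen, which forms mixed fibrils with type I, read 3.90 and 3.93 with the empty vector, under the lower quartile. With the construct it read 5.20 and 5.66, still below the array median but without overlap. The difference was 1.52 ± 0.19 (95% interval 1.10 to 1.93, adjusted p = 7.64e-04), from a level near background. Of its 4 probe sets 2 passed, at 1.52 and 0.77; another gave 0.45 without passing, and the last, which was dim in every group, gave -0.10. COL5A2, its neighbour on chromosome 2, did not pass, with values of 5.43 and 5.25 against 5.70 and 5.27 and a difference of 0.14 (adjusted p = 0.793).

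Among the other chains, COL15A1 codes for a multiplexin, a proteoglycan-bearing collagen at the edge of basement membranes. It read 4.59 and 4.65 with the empty vector and 5.88 and 6.01 with the construct, a rise of 1.32 ± 0.10 (2.50-fold, 95% interval 2.14 to 2.93, adjusted p = 9.87e-05). COL15A1 has 1 probe set and lay below the array median in both groups, so its fold depends on how the array reads dim signal. COL6A3, the long chain of type VI collagen, read 9.05 and 8.95 with the empty vector and 10.13 and 10.59 with the construct. The 2.57-fold rise of COL6A3 (95% interval 1.97 to 3.35, adjusted p = 9.72e-04) was not shared by its partner chains. COL6A2 read 8.65 and 8.44 against 7.49 and 8.23, a fall of 1.61-fold (difference -0.69, 95% interval of the fold 1.22 to 2.13, adjusted p = 0.0478). COL6A1 read 12.49 on both empty-vector arrays and 11.97 and 12.07 with the construct, a difference of -0.47 that did not pass (adjusted p = 0.274). The 3 chains assemble into 1 molecule, and here COL6A3 was higher on both construct arrays while COL6A1 and COL6A2 were lower on both.

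The COL6A2 call did not hold without the first construct array of LM24175, when the difference was -0.32 (adjusted p = 0.27), nor without the first or second vector array (0.27 and 0.13). It was lost in 9 of 14 alternatives, with adjusted p from 0.0524 to 0.27 in those 9; neither of its probe sets passed when each was tested alone. COL1A2, COL3A1, COL6A3 and COL15A1 passed in all 14. Without both arrays that stood apart calls were added in LM24175 for COL4A5 (0.60), COL4A6 (1.11), COL5A1 (0.33), and, lower, COL6A1 (-0.42) and COL18A1 (-0.72). The count over all genes rose as well. COL4A6 is a basement membrane chain that read 4.97 and 6.01 on the construct arrays against 4.99 and 4.81 with the vector, so its value without the first construct array is that of a single array.

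**Figure D2:**
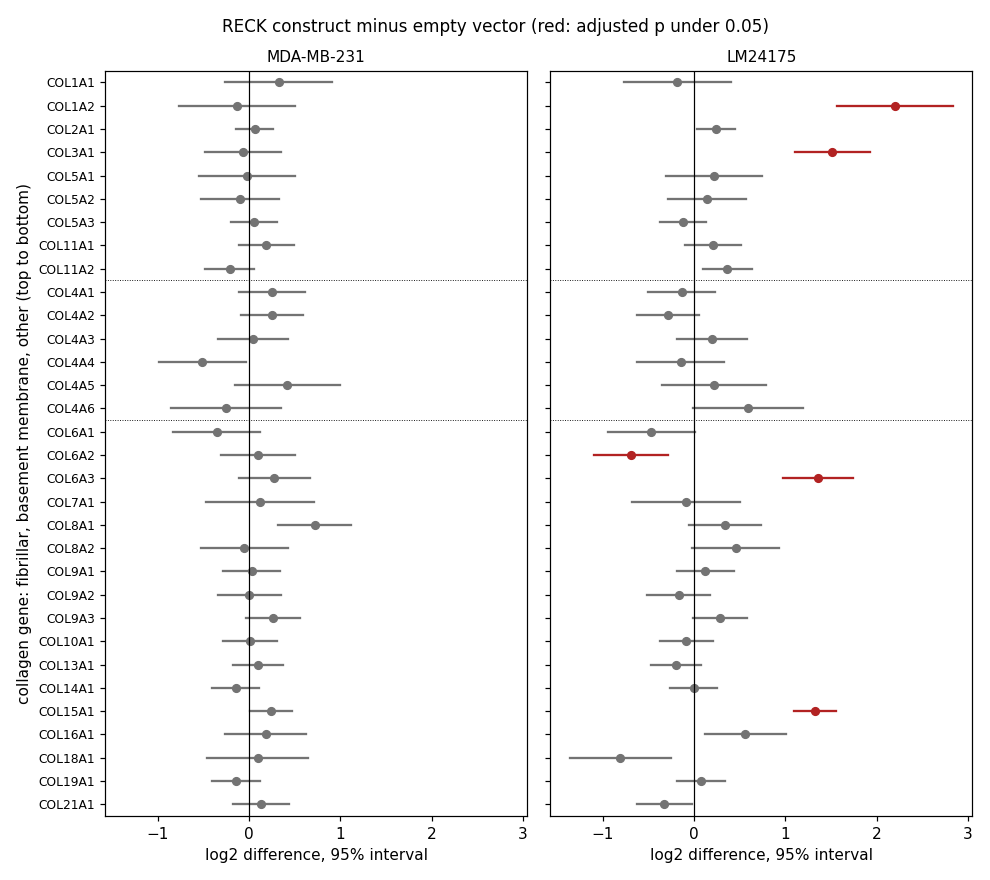
Log2 difference, RECK construct minus empty vector, with its 95% interval, for each of the 32 collagen genes in MDA-MB-231 (left) and LM24175 (right); genes in red had an adjusted p under 0.05. All points on the left are grey, and on the right COL1A2, COL3A1, COL6A3 and COL15A1 lie above 0 and COL6A2 below it.

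The response to the construct differed between the lines for 4 of 32 collagens by the interaction test (3.64% of all genes in either direction), all more positive in LM24175 (1.65% of all genes). For COL1A2 the response was larger in LM24175 by 2.34 ± 0.41 (adjusted p = 0.0104), and for COL3A1 by 1.58 ± 0.27 (adjusted p = 0.00983). For COL15A1 it was larger by 1.08 ± 0.15 (adjusted p = 0.00394) and for COL6A3 by 1.08 ± 0.25 (adjusted p = 0.0363). In MDA-MB-231 itself the construct gave -0.13 for COL1A2, -0.07 for COL3A1, 0.24 for COL15A1 and 0.28 for COL6A3, none past the threshold. In a fit of the invasive arrays alone none of the 4 passed, with adjusted p from 0.0653 to 0.197, and COL6A3 lost its call in 6 of 18 alternatives. Without the first empty-vector array of MDA-MB-231, which read 5.07 for COL1A2 against 3.81 on the second, the COL1A2 value was 1.71, and without the second it was 2.97. COL1A2 and COL6A3 lost their calls without the first empty-vector array of LM24175, with values of 2.11 and 1.13. Without the second empty-vector array of MDA-MB-231 more collagens were called, and so were more of all genes.

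Markers of other cell types were compared across the same arrays because fibroblasts are a known source of fibrillar collagen. None of 12 fibroblast markers passed in LM24175, and their mean level was 6.81 to 6.89 on the empty-vector arrays and 6.69 to 6.98 on the construct arrays. PDGFRA, a defining fibroblast receptor, read 3.996 and 4.04 with the empty vector and 4.06 and 3.96 with the construct, near background. LUM, coding for the fibril-binding proteoglycan lumican, read 5.24 and 5.11 with the empty vector and 5.70 and 6.87 with the construct; its difference of 1.11 did not pass (adjusted p = 0.126). The 6 endothelial, 5 measured leukocyte, 4 adipocyte and 6 smooth muscle markers had 0 to 2 members above the array median in the groups of the invasive lines.

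Enzymes that modify and cross-link collagen were examined on the same arrays. Of 25 measured genes of the collagen processing list 6 fell, none rose and 19 did not pass (3.27% of all genes fell), led by LOXL1 (-2.18, adjusted p = 0.00217) and LOX (-1.30, adjusted p = 3.55e-04), which cross-link collagen, and P3H3 (-1.07, adjusted p = 0.00178) and PLOD2 (-0.74, adjusted p = 0.00647), which hydroxylate proline and lysine. The list's median difference was -0.11, against 0.00 over all genes. Among 7 proteases that degrade collagen, MMP1, the interstitial collagenase, rose by 1.77 (adjusted p = 9.87e-05) and MMP9, a gelatinase, by 1.10 (adjusted p = 0.0149). Of 8 measured collagen receptors DDR2 fell, with a difference of -0.69 (adjusted p = 0.0387), and none of 8 fibril-binding proteoglycans passed. In MDA-MB-231 none of these 4 lists had a member past the threshold.

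**Figure D3:**
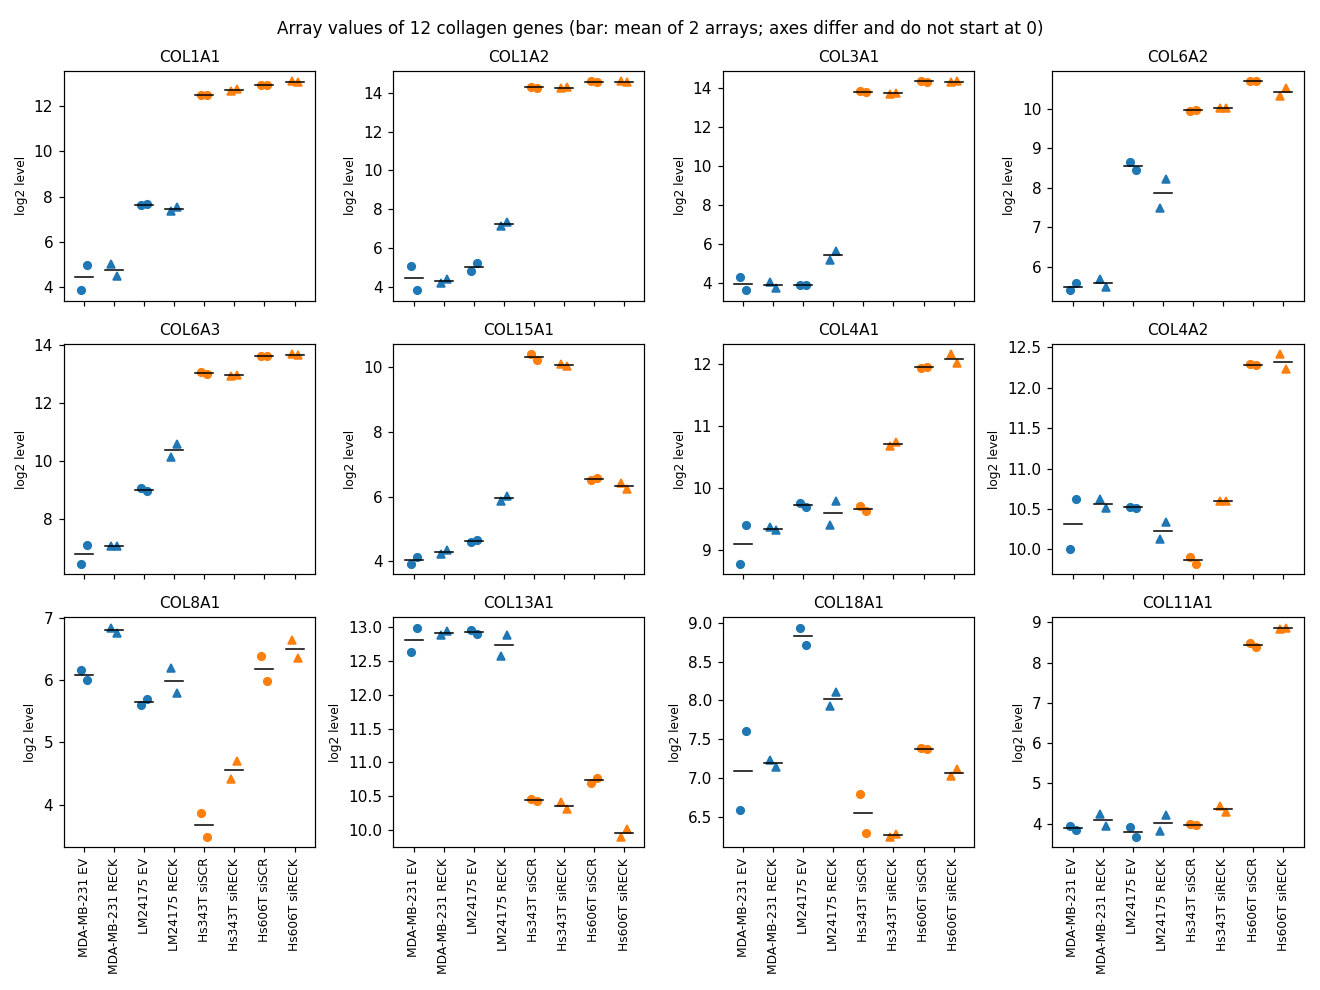
Log2 level of 12 collagen genes on each of the 16 arrays, 1 gene to a panel, with 8 groups of 2 arrays; blue marks invasive and orange poorly invasive lines, circles the control and triangles the construct or the arrays labelled siRECK, and bars the mean of 2 arrays. Axes differ between panels and do not start at 0; COL1A2 and COL15A1 are higher on the construct arrays of LM24175 than on its vector arrays, and COL4A1 and COL4A2 on the arrays labelled siRECK of Hs343T than on its siSCR arrays.

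In Hs343T the arrays labelled siRECK were compared with siSCR to ask what the siRNA changes in a poorly invasive line. Of 32 collagens 4 passed, against 29.3% of all genes, so a smaller share of the collagens passed than of the genes at large. COL4A1, COL4A2 and COL8A1 rose and COL2A1 fell (12% of all genes rose and 17.4% fell). Of the fibrillar chains 1 of 9 changed, of the basement membrane chains 2 of 6 and of the other chains 1 of 17. The median difference was -0.03 over the collagens and -0.06 over all genes.

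COL4A1, the major chain of the basement membrane network, read 9.70 and 9.62 on the siSCR arrays and 10.67 and 10.74 on the arrays labelled siRECK. The groups did not overlap, and the rise of 1.05 ± 0.17 was 2.07-fold (95% interval 1.60 to 2.66, adjusted p = 4.28e-04). COL4A2, its partner, which shares the promoter interval printed above, read 9.91 and 9.82 against 10.60 and 10.61. It rose 1.66-fold (95% interval 1.31 to 2.11, adjusted p = 0.00331), and both probe sets of each gene passed. COL8A1 read 3.87 and 3.48 against 4.41 and 4.70, and rose by 0.88 ± 0.18 from a level near background (adjusted p = 0.00274); its second probe set was near background in every group and gave -0.06.

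COL2A1 passed with a difference of only -0.27 (adjusted p = 0.0487). It lay near background in every group, its second probe set had the opposite sign, and the call was lost in 11 of 13 alternatives. The other fibrillar chains did not pass, those brightest in this line among them: COL1A1 differed by 0.24, COL1A2 by -0.02, COL3A1 by -0.09 and COL5A2 by 0.07. The 95% interval of the COL3A1 difference ran from -0.50 to 0.33. COL1A2 lay near the top of the scale, at 14.24 to 14.32 in Hs343T with at most 43 of 22277 probe sets above it, and a change there may be read smaller than it was.

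In Hs606T 1 collagen passed, against 1.2% of all genes, and 6 collagens had an unadjusted p under 0.05. COL13A1, a transmembrane collagen of cell adhesion sites, read 10.70 and 10.77 on the siSCR arrays and 9.90 and 10.02 on the arrays labelled siRECK. The fall was 1.71-fold (difference -0.77 ± 0.12, 95% interval of the fold 1.41 to 2.06, adjusted p = 0.0102; 0.385% of all genes fell). All 3 of its probe sets were lower, by 0.39 to 0.77, and 1 passed alone. The call was lost without the first siSCR array (adjusted p = 0.0624), the second siSCR array (0.108) or the first array labelled siRECK (0.122), with differences of -0.71 to -0.81, and in a fit of the 4 Hs606T arrays alone (0.0561). COL11A1, a minor fibril chain, read 8.48 and 8.38 against 8.84 and 8.87 without overlap, and its difference of 0.43 did not pass (adjusted p = 0.222).

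**Figure D4:**
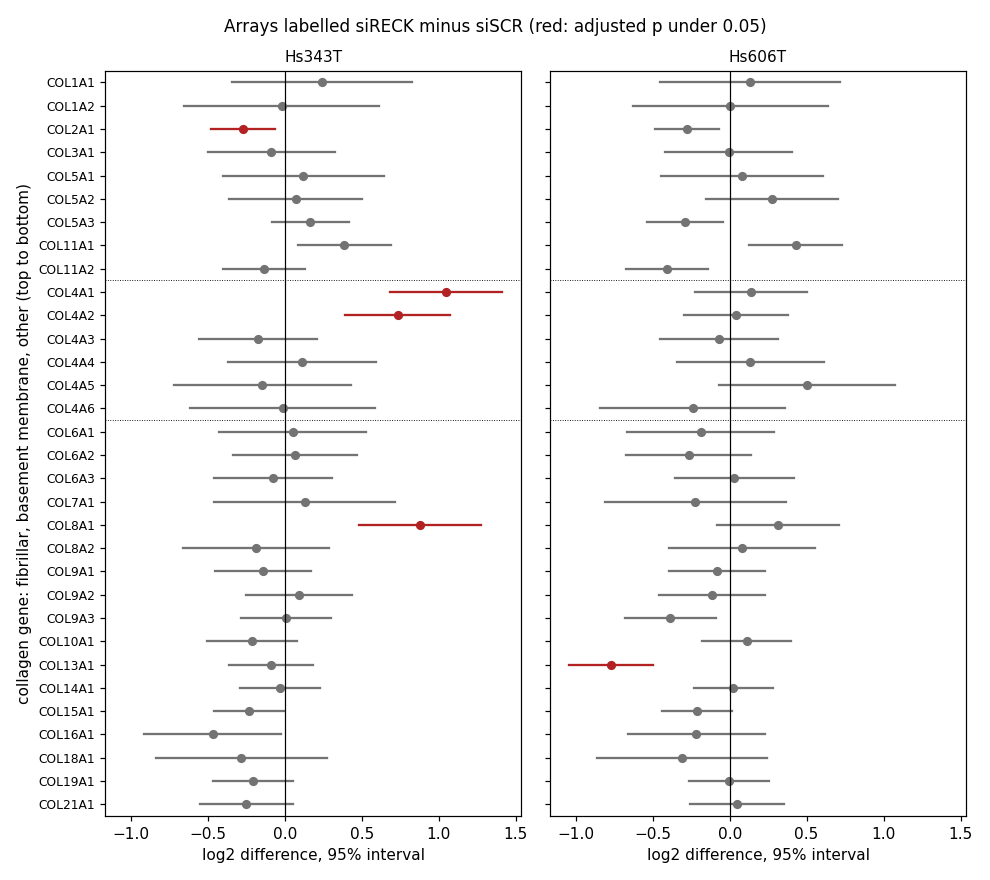
Log2 difference, arrays labelled siRECK minus siSCR, with its 95% interval, for each of the 32 collagen genes in Hs343T (left) and Hs606T (right); genes in red had an adjusted p under 0.05. COL4A1, COL4A2 and COL8A1 lie above 0 and COL2A1 below it on the left, and COL13A1 lies below 0 on the right.

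The siRNA response differed between the lines for 3 of 32 collagens (20.4% of all genes in either direction), each more negative in Hs606T (8.72% of all genes). The difference of responses was -0.91 ± 0.24 for COL4A1 (adjusted p = 0.0166), -0.69 ± 0.22 for COL4A2 (adjusted p = 0.0445) and -0.68 ± 0.18 for COL13A1 (adjusted p = 0.0166). COL4A1 and COL4A2 themselves differed by 0.14 and 0.04 in Hs606T, where they read 11.93 to 12.15 and 12.24 to 12.41, above their Hs343T arrays of either label. Leaving out single arrays reduced the count from 3 to between 0 and 2, and COL4A2 lost its call in 10 of 18 alternatives. The 3'-to-5' difference of the GAPDH control probe sets, a measure of RNA integrity, was 0.43 and 0.48 on the arrays labelled siRECK of Hs343T and 0.20 to 0.39 on the remaining arrays; its part in the Hs343T differences was not tested.

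Beside the chains, 4 of 12 fibroblast markers fell and none rose on the arrays labelled siRECK of Hs343T, where 17.4% of all genes fell, among them PDGFRA (-0.94, adjusted p = 4.53e-05). Their mean level was 11.14 to 11.16 on the siSCR arrays and 10.81 to 10.85 on those labelled siRECK, and their part in the collagen differences was not tested. Of the epithelial markers 3 of 10 fell, of the smooth muscle, endothelial and leukocyte markers 1 each, and of the adipocyte markers none; none of these rose. Of the collagen processing list 2 of 25 rose and 4 fell, no larger a share than of all genes (12% and 17.4%): MIA3, which loads collagen into transport carriers, rose by 1.45 (adjusted p = 1.68e-06), and PCOLCE, which helps to trim the procollagen end, fell by 0.62 (adjusted p = 0.0123). No protease, receptor or proteoglycan of the lists passed in Hs343T. In Hs606T MMP1 fell, with a difference of -1.08 (adjusted p = 0.00237), ASPN, coding for the proteoglycan asporin, rose by 0.78, and no processing gene, receptor or fibroblast marker passed.

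The lines were next compared in their control arms, which share their arrays with the comparisons above. With the empty vector 11 of 32 collagens were higher in LM24175 than in MDA-MB-231, none was called lower and 21 did not pass, where 9.87% of all genes were higher and 10.9% lower (20.8% in either direction). The median difference was 0.18 over the collagens and -0.01 over all genes. The higher chains were 2 of 9 fibrillar, 2 of 6 basement membrane and 7 of 17 other chains.

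All 3 measured chains of type VI collagen were higher. COL6A1 read 8.92 and 9.92 in MDA-MB-231 and 12.49 on both LM24175 arrays, an 8.39-fold difference (95% interval 6.03 to 11.7, adjusted p = 2.51e-06), and all 8 of its probe sets were higher, 4 past the threshold. COL6A2 read 5.40 and 5.58 against 8.65 and 8.44 (8.30-fold, 95% interval 6.27 to 11, adjusted p = 7.6e-07). COL6A3 read 6.45 and 7.08 against 9.05 and 8.95 (4.71-fold, 95% interval 3.60 to 6.15, adjusted p = 5.29e-06). COL6A1 and COL6A2 are neighbours on chromosome 21, and their differences were 3.07 and 3.05; COL6A3 lies on chromosome 2.

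COL1A1 read 3.87 and 5.005 in MDA-MB-231 and 7.62 and 7.67 in LM24175, a 9.25-fold difference (95% interval 6.17 to 13.9, adjusted p = 8e-06). The first MDA-MB-231 array lay under the lower quartile, so the fold depends on how the array reads dim signal. Another COL1A1 probe set was also higher, at 3.347 and 3.688 against 5.635 and 5.845. The remaining ones read alike: 5.546 and 5.466 against 5.595 and 5.528, and 7.56 and 7.18 against 7.355 and 7.214. COL1A2 read 5.07 and 3.81 against 4.80 and 5.25 and did not pass (difference 0.58, adjusted p = 0.203). It passed, at 1.21, without the first MDA-MB-231 array. COL18A1, the multiplexin that holds endostatin, read 6.59 and 7.61 against 8.94 and 8.71 (3.31-fold, adjusted p = 4.74e-04).

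Smaller differences passed for COL7A1, the anchoring fibril chain (2.21-fold, adjusted p = 0.00996), and COL4A5, a basement membrane chain (2.21-fold, adjusted p = 0.00854). COL7A1 read 6.93 and 7.63 in MDA-MB-231 and 8.31 and 8.53 in LM24175, and COL4A5 read 6.73 and 7.59 against 8.28 and 8.33, with no overlap for either. COL5A2 (1.77-fold), COL8A2 (1.76-fold), COL4A1 (1.56-fold) and COL15A1 (1.49-fold) followed. COL8A2 and COL15A1 were near background in MDA-MB-231, so their folds depend on how the array reads dim signal. Without the first MDA-MB-231 array COL7A1 (0.79), COL4A5 (0.71), COL5A2 (0.50), COL8A2 (0.76) and COL4A1 (0.34) did not pass, and each of the 5 also lost its call without at least 1 of the LM24175 arrays. COL5A1 differed by -0.58 without the first MDA-MB-231 array and by 0.51 without the second.

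Beside the list counts of this paragraph, 9.87% of all genes were higher in LM24175 and 10.9% lower. Of the processing list 10 of 25 were higher and none lower in LM24175, led by FKBP10 (3.11, adjusted p = 2.37e-10), a procollagen chaperone, P3H4 (1.93), LOX (1.59) and P3H3 (0.95). MMP2, a gelatinase, was higher by 3.02 (adjusted p = 6.33e-07), while MMP1 differed by -1.58, MMP14 by -0.94 and MMP13 by -0.47. The receptors DDR2 (0.73) and MRC2 (0.63) were higher, and no proteoglycan passed. Fibroblast markers were higher for 4 of 12 and lower for none, with mean levels of 6.26 to 6.503 in MDA-MB-231 and 6.81 to 6.89 in LM24175. Their part in the collagen differences was not tested.

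Hs606T and Hs343T differed in 13 of 32 collagens with siSCR, against 36.8% of all genes. In Hs606T 10 were higher and 3 lower, where 18.4% and 18.5% of all genes were. The median difference was 0.23 over the collagens and -0.04 over all genes. Of fibrillar chains 2 were higher and 1 lower, of basement membrane chains 2 and 1, and of other chains 6 and 1.

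The fibrillar chain COL11A1 separated the lines most: it read 3.99 and 3.97 in Hs343T, near background, and 8.48 and 8.38 in Hs606T. The difference was 4.45 ± 0.14 (adjusted p = 8.77e-10), and with Hs343T near background its fold is not given, since it depends on how the array reads dim signal. COL15A1 ran the other way, at 10.38 and 10.21 in Hs343T against 6.52 and 6.59 in Hs606T, 13.4-fold lower (95% interval 11.4 to 15.7, adjusted p = 4.67e-10). In both lines these levels held on the arrays labelled siRECK: COL11A1 read 4.45 and 4.28 against 8.84 and 8.87, and COL15A1 10.09 and 10.03 against 6.43 and 6.25.

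The paired basement membrane chains were both higher in Hs606T. COL4A1 read 9.70 and 9.62 against 11.93 and 11.95 (4.86-fold, adjusted p = 7.82e-07), and COL4A2 read 9.91 and 9.82 against 12.29 and 12.28 (5.34-fold, 95% interval 4.22 to 6.77, adjusted p = 2.72e-07). COL4A5, on the X chromosome, read 6.80 and 6.58 against 4.99 and 5.30, 2.92-fold lower (adjusted p = 5.92e-04). The basement membrane chains of the lines thus differed in opposite directions.

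Both short-chain collagens were higher in Hs606T: COL8A1 read 3.87 and 3.48, near background, against 6.39 and 5.99 (difference 2.52, adjusted p = 6.86e-07), and COL8A2 read 5.53 and 5.17 against 7.10 and 7.01 (difference 1.70, adjusted p = 6.92e-05). COL16A1, a fibril-associated chain, read 8.23 and 8.40 against 10.35 and 10.30 (4.02-fold, adjusted p = 1.12e-05). COL18A1 (0.84), COL6A2 (0.73), COL6A3 (0.60) and COL3A1 (0.52) were higher by less, and COL5A3 differed by -0.54. The COL3A1 call, at an adjusted p of 0.0492, was lost without any single array of the comparison, when the p lay between 0.135 and 0.148. The COL6A3 call was likewise lost without any single one of these 4 arrays, and that of COL18A1 without 3 of them. In a fit of the 4 arrays alone 20 collagens passed, where 4835 of all genes did, against 4408 in the main fit.

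Beside the counts of this paragraph, 18.4% of all genes were higher in Hs606T and 18.5% lower. Of the fibril-binding proteoglycans 6 of 8 were higher in Hs606T and 1 lower, led by BGN (2.49), OGN (2.24), ASPN (1.75) and LUM (1.60). Of the processing list 8 of 25 were higher and 3 lower, and of the proteases CTSK, a collagen-degrading cathepsin (2.19), MMP2 (0.75) and MMP1 (0.51) were higher. Of the fibroblast markers 5 of 12 were higher and 1 lower, with mean levels of 11.14 to 11.16 in Hs343T and 11.74 to 11.77 in Hs606T; their part was not tested.

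Across the control arms, 27 of 32 collagens differed between the poorly invasive and the invasive lines, against 72.9% of all genes. In the poorly invasive lines 20 were higher and 7 lower, where 38.8% and 34.2% of all genes were. The 9 fibrillar chains were all higher, with a median difference of 3.09 against 0.08 over all genes. The basement membrane chains split, with 2 higher and 2 lower, and of the 17 other chains 9 were higher and 5 lower; the median over all 32 was 0.55. Each side holds 2 lines of 2 arrays, so the test measures the spread between arrays and not between lines. The vector and the siRNA transfection are confounded with the kind of line and cannot be told apart from it, and in bulk RNA a share of cells and a level per cell cannot be told apart either.

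COL3A1 was 3.64 to 4.30 in the invasive control arms, near background, and 13.84 to 14.37 in the poorly invasive ones. The difference was 10.16 ± 0.13 (adjusted p = 2.08e-14); with the invasive arms near background its size, like those of COL1A2, COL5A2 and COL1A1 where they were dim, depends on how the array reads dim signal. COL1A2 followed with 3.81 to 5.25 against 14.26 to 14.59 (831-fold, 95% interval 609 to 1130, adjusted p = 9.77e-13). In Hs606T at most 3 of 22277 probe sets lay above COL1A2, so its difference may be understated at the top of the scale. COL5A2 read 4.19 to 5.43 against 11.98 to 12.59 (168-fold), and COL1A1 3.87 to 7.67 against 12.45 to 12.93 (100-fold, 95% interval 75.3 to 134).

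Smaller fibrillar differences were those of COL5A1 at 7.94 to 9.02 against 11.29 to 11.80 (8.50-fold), COL5A3 at 5.09 to 5.50 against 7.20 to 7.83 (4.54-fold) and COL11A2 (1.66-fold). COL11A1, with a mean difference of 2.35, was high in Hs606T alone: it read 3.68 to 3.99 in all 6 control arrays of the remaining 3 lines. COL2A1 passed at 0.26 while near background in every group.

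Of the other chains, COL6A3 read 6.45 to 9.05 against 13.03 to 13.65 (44-fold, 95% interval 36.5 to 53.2), COL15A1 3.94 to 4.65 against 6.52 to 10.38 (17.1-fold) and COL16A1 5.33 to 5.72 against 8.23 to 10.35 (14.1-fold). COL6A2 was 9.91-fold, COL6A1 4.25-fold and COL8A2 3.45-fold higher. The folds of COL15A1 and COL8A2 depend on dim signal, since both chains were near background in the MDA-MB-231 arm. COL13A1 went the other way without overlap, at 12.62 to 12.99 in the invasive and 10.44 to 10.77 in the poorly invasive arms, 4.84-fold lower (95% interval 4.23 to 5.53, adjusted p = 2.22e-10). All 3 of its probe sets were lower.

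Among the basement membrane chains COL4A1 (1.39) and COL4A2 (0.66) were higher on average in the poorly invasive lines, with arrays that overlapped: Hs343T read 9.62 to 9.70 for COL4A1 and LM24175 9.70 to 9.76. COL4A5 was lower by 3.52-fold, read at 6.73 to 8.33 in the invasive and 4.99 to 6.80 in the poorly invasive arms. COL7A1 and COL8A1 were each 1.92-fold and COL18A1 2.00-fold lower, all with overlapping arrays. COL8A1 read 6.17 and 6.01 in MDA-MB-231 and 6.39 and 5.99 in Hs606T, so its mean difference lies in Hs343T. COL4A4 (-0.44), COL21A1 (-0.36), COL9A3 (0.45), COL14A1 (0.26) and COL10A1 (0.23) passed with small differences below the array median, and COL4A4, COL10A1 and COL14A1 lost their calls in 7, 11 and 5 alternatives.

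Of the processing list 22 of 25 were higher and 2 lower in the poorly invasive lines, beside 38.8% and 34.2% of all genes, led by PCOLCE (5.31), LOXL1 (4.18), FKBP10 (3.79) and LOX (3.24, adjusted p = 2.02e-11). Of the proteoglycans 7 of 8 were higher, among them LUM (6.93), DCN (6.85) and BGN (4.96). Of the proteases 4 of 7 were higher and 1 lower, with MMP2 at 5.84 and CTSK at 5.51. Of 8 receptors 3 were higher, near the share of all genes, and 1 was lower, a smaller share than of all genes. The receptors' median difference was 0.07 against 0.08 over all genes. Fibroblast markers were higher for 11 of 12, with mean levels of 6.26 to 6.89 in the invasive and 11.14 to 11.77 in the poorly invasive control arms. PDGFRA, FAP, POSTN and TWIST1 were near background in the invasive lines. Their part in the collagen differences was not tested.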

How the data were processed

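Log2 values for 16 arrays (22277 probe sets) were deposited by the authors as a table of processed values; Partek is named per the submitters' processing notes, and its normalization, background correction and version are each not given in the sources used. Array medians were 6.42 to 6.57, and the values were used as deposited. Probe sets were named through GEO's platform annotation: 19064 had 1 symbol, 1043 several and 2164 none, and 62 controls were left out. All 73 collagen symbols matched the RefSeq gene table.

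Groups were compared with limma 3.58.1 in R 4.3.3: 8 group means over 16 arrays without a replicate block, eBayes and 2-sided tests, adjusted over 11963 genes, each read from its brightest probe set. Residual degrees of freedom were 8 (prior 3.72) and the median residual SD 0.129. On simulated data for the LM24175 comparison (11963 genes) the fit recovered 62% of 1.5-fold and 96% of 2-fold changes, with 13 false calls. Tables and figures used Python 3.11.15.

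Replicate numbers did not in general pair the arrays: across 28 pairs of groups the correlation of deviations was -0.122 to 0.486, over 0.1 in 1. That pair was MDA-MB-231 with the empty vector and LM24175 with the construct, whose first arrays are the 2 that stood apart. Both groups enter the difference of construct responses with the same sign, so their joint deviation does not cancel there. Array values are given for collagens called at 1.5-fold within a line and for up to 6 per class with the largest difference between lines; COL1A1, COL5A1, COL5A2, COL6A1, COL4A6 and COL11A1, also given within lines, were chosen after their values were seen. Up to 4 called genes of each further list are named: collagen processing, receptors, proteases, proteoglycans and markers of epithelial, fibroblast, smooth muscle, endothelial, leukocyte and adipocyte cells. Members and lists were chosen with earlier results of these data known. Alternatives were quantile normalization, median centring, the mean of probe sets, each probe set alone, a filter on dim genes, trend and robust variance, the replicate block, only the arrays compared, each array left out, both deviating arrays left out and a 1.5-fold minimum.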

Additional observations from a re-analysis of the deposited data

Results flagged for a closer look

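The response to the RECK construct differed between the invasive lines, by the interaction test in limma, for 4 of 32 collagens, beside 3.64% of all genes. The response in LM24175 minus that in MDA-MB-231 was 2.34 for COL1A2, 1.58 for COL3A1, 1.08 for COL6A3 and 1.08 for COL15A1, with adjusted p from 0.00394 to 0.0363. Both construct arrays of LM24175 were above both of its vector arrays for each of these genes. The genes were picked by a test on the same arrays, so this is no separate support. The share of all genes without overlap was not counted. In a fit of the 8 arrays of the invasive lines alone none of the 4 passed, with adjusted p from 0.0653 to 0.197.

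The difference between the arrays labelled siRECK and siSCR was unequal in the poorly invasive lines for 3 of 32 collagens. That is a smaller share than the 20.4% of all genes. Hs606T minus Hs343T gave -0.91 for COL4A1, -0.69 for COL4A2 and -0.68 for COL13A1, with adjusted p from 0.0166 to 0.0445. Both arrays labelled siRECK were above both siSCR arrays for COL4A1 and COL4A2 in Hs343T, and below them for COL13A1 in Hs606T. These genes too were picked by a test on the same arrays, and the share of all genes without overlap was not counted.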

How the results depend on the processing

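Of 68 collagen differences called, 42 passed under every alternative run for them. None reversed on its brightest probe set or on the mean of its probe sets. Several alternatives change the test but not the difference, so they could not reverse it. Other probe sets were not counted here, and some had the opposite sign, as given above for COL2A1 and COL8A1 in Hs343T. With 2 arrays a group, single arrays decide the marginal calls; a group left with 1 array was assumed to vary like the others. Leaving out 1 array at a time gave 0 to 6 collagens called for the construct in MDA-MB-231 (0 with all arrays), 4 to 5 in LM24175 (5), 3 to 4 for the siRNA in Hs343T (4) and 0 to 1 in Hs606T (1). For LM24175 against MDA-MB-231 it gave 8 to 13 (11), for Hs606T against Hs343T 10 to 12 (13), for the poorly invasive against the invasive lines 24 to 26 (27), and for the differences of response 2 to 10 (4) and 0 to 2 (3). Without both deviating arrays the counts were 2 for the construct in MDA-MB-231, 9 in LM24175, 7 for the difference of construct responses and 6 for that of siRNA responses. With only the arrays compared they were 0 for Hs606T siRNA, 20 for Hs606T against Hs343T, 0 for the difference of construct responses and 5 for that of siRNA responses. The mean of all probe sets gave 2 for Hs606T siRNA, adding COL11A1 (0.54). Against the array median in place of the lower quartile, 11 collagens rather than 5 were low in all 8 groups. Counts over all genes moved in many of these settings too, as given below, and the cause of these shifts was not tested.

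With the replicate number as a block the counts were 0, 4, 3, 1, 11, 12, 26, 4 and 2 in the order above; it lost COL6A2 (LM24175), COL2A1 (Hs343T), COL3A1 (Hs606T against Hs343T), COL10A1 and COL4A2 (siRNA difference).

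Over all genes, calls in MDA-MB-231 numbered 33, with 59 without dim genes, 81 with trend and robust variance, 20 with the block, 0 with only its arrays, 3 to 681 leaving out 1 array and 117 without both deviating arrays. In LM24175 they numbered 802, with 153 for only its arrays, as few as 276 leaving out 1 array and 343 at a 1.5-fold minimum, and median centring put 477 of 779 higher in place of 411 of 802. In Hs606T 143 became 65 with only its arrays, as few as 46 leaving out 1 array, 364 without both deviating arrays and 93 at 1.5-fold. The difference of construct responses gave 435, with 671 for trend and robust variance, 21 for only its arrays and 123 to 1411 leaving out 1 array, and median centring put 230 of 413 higher in place of 197 of 435. LM24175 against MDA-MB-231 gave 2489, with 1169 for only its arrays and as few as 1430 leaving out 1 array. A 1.5-fold minimum gave 1808 of 3511 in Hs343T, 1144 of 2489, 2146 of 4408 for Hs606T against Hs343T and 4558 of 8726 across the control arms.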
